A study of Mus musculus with 24 samples.

Results

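The effect of β-aminopropionitrile (BAPN) on the mouse aorta was estimated across both genotypes of the study at once, in a model with 1 term for genotype and 1 for BAPN, from 13 libraries of BAPN-treated mice and 11 of mice on plain water, all 24 libraries of the series. The groups were ATAD3A knock-in (KI) mice on BAPN (6 libraries), KI mice on plain water (5), wild-type (WT) mice on BAPN (7) and WT mice on plain water (6), where ATAD3A is a mitochondrial membrane ATPase. All were male, and treatment began at an age of 3 weeks and ran for 28 days, with BAPN dissolved in the drinking water at 0.5% by weight per volume. Polyadenylated RNA came from the aorta between its ascending part and the abdominal bifurcation. Neither the nature of the knock-in allele nor its promoter or the strain is described in the labels. Of 14216 genes tested, 499 (3.51%) passed an edgeR quasi-likelihood test at a Benjamini-Hochberg adjusted p under 0.05 and are said below to have risen or fallen: 248 (1.74%) were higher and 251 (1.77%) lower on BAPN. Counts of list members given below are to be set beside these shares.

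BAPN blocks the lysyl oxidases, the copper enzymes that oxidise lysines in collagen and elastin so that the fibres can be cross-linked. Given to young rodents, it weakens the elastic lamellae of the growing aorta and leads to aneurysm and dissection. The aortic wall is made of contractile smooth muscle cells between elastic lamellae, an endothelium, and an outer adventitia of fibroblasts, macrophages, fat and sympathetic nerve endings, so whole-aorta RNA mixes these cells. In such bulk samples, fewer cells of a type and less RNA per cell cannot be told apart.

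Libraries held 13908765 to 26490651 counts on BAPN and 13127645 to 25725459 on plain water, and mitochondrially encoded genes took 4.24 to 14.8% on BAPN and 6.67 to 14.7% on plain water. Smooth muscle genes marked the tissue as labelled: Acta2, smooth muscle actin, had 7078, 17983 and 31546 CPM on BAPN, against 4198, 28966 and 39695 CPM on plain water, where 3 values here and below are the lowest, median and highest of the 13 and of the 11 libraries. CPM are counts scaled to a common library total with TMM factors. Atad3a averaged 587 ± 262 CPM in KI-BAPN (SD, n = 6), 1079 ± 407 CPM in KI (n = 5), 33.2 ± 7.25 CPM in WT-BAPN (n = 7) and 40.2 ± 11.4 CPM in WT (n = 6), and every KI library was above every WT library. Its BAPN change over both genotypes did not pass the test (log2 change -0.55 ± 0.20, edgeR adjusted p = 0.123). Some libraries on plain water held RNA of other tissues. WT replicate 5 had 23305 CPM in the summed airway epithelium markers, where the other 23 libraries had 2.53 to 255, and 7991 CPM in skeletal muscle markers, where the others had 19.3 to 48.8. KI replicate 2 had 4340 CPM in summed sympathetic neuron markers, where the others had 108 to 696. Both of these, with KI replicates 1 and 5, form the 4 libraries rich in other tissue that are left out in the values given below for that fit. In KI replicate 1 the neuron marker Dbh reached 22.7 CPM. All 4 are on plain water, and every BAPN library was kept. Summed adipocyte markers were highest in a library that was kept, KI-BAPN replicate 3, at 33554 CPM. On plain water their highest sum was 23556, from KI replicate 5. How far leaving out only libraries on plain water shaped the values of that fit was not tested. Without the 4 libraries 2264 of 14486 genes (15.6%) passed, 1179 (8.14%) higher and 1085 (7.49%) lower, and 389 of the 499 were among them. List counts of that fit given below are to be set beside 8.14% and 7.49%.

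The 499 genes had the same sign of change in both genotypes, and 269 of them (1.89% of the genes tested) had an unadjusted p under 0.05 in KI and in WT each, 128 higher and 141 lower. These within-genotype values come from the libraries of the pooled fit and are no separate evidence. Over all genes tested, 7340 (51.6%) had the same sign in both genotypes, 343 (2.41%) had an unadjusted p under 0.05 in both with the same sign, and 26 (0.183%) with opposite signs. The median change of the genes that rose was 0.83 in KI and 1.14 in WT, and that of the genes that fell -1.01 in KI and -1.21 in WT. No gene passed the test of the difference between genotypes (edgeR quasi-likelihood, lowest adjusted p 0.280, 2111 genes at an unadjusted p under 0.05). In simulated counts that test found 24 of 100 genes set to differ by a log2 of 1 and 62 of 100 set to differ by 2, so it missed many differences of this size there. The simulation used each gene's mean and estimated spread, with no genotype effect and no library rich in other tissue. Recovery in the real libraries may differ. DESeq2 called 14 genes for that difference and limma voom 4. Of the 499, 151 had the larger change in KI and 348 in WT. For the change within each genotype, taken from 1 fit of all 24 libraries, 3 of the 499 passed in KI, 292 in WT and 204 in neither.

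**Figure D1:**
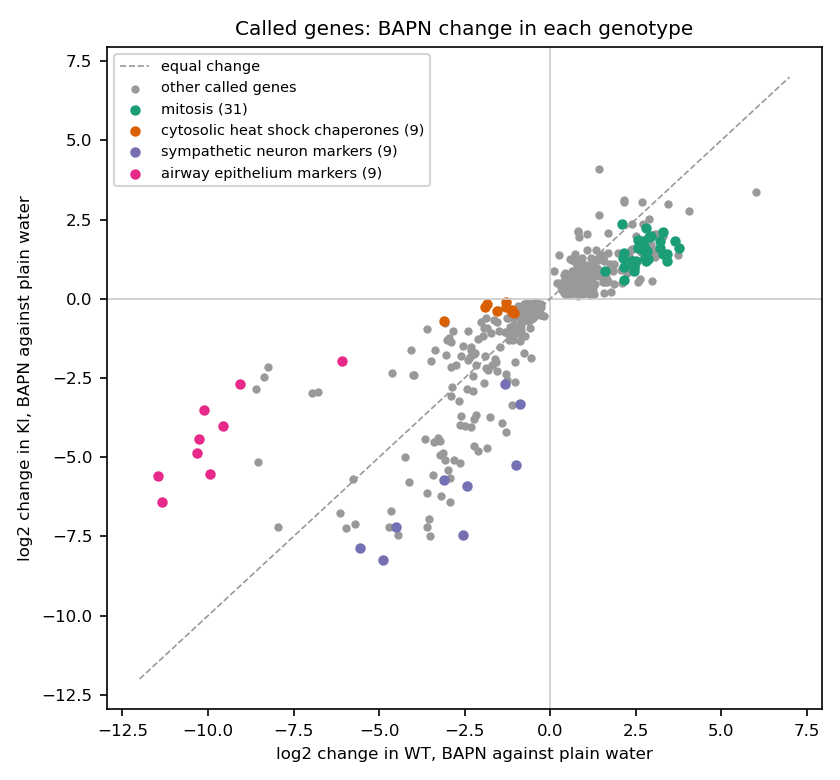
The 499 genes with a pooled BAPN effect, each a point at its log2 change (BAPN against plain water) in WT (horizontal) and in KI (vertical). The dashed line marks equal change. No point lies in a quadrant of opposite signs. Of the 31 mitosis genes all but Melk changed more in WT, the 9 heat shock chaperones change more in WT, the 9 airway genes reach -11.45 in WT and the 9 neuron genes -8.23 in KI.

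Hykk, the kinase that phosphorylates hydroxylysine set free when collagen is broken down, had 5.32, 5.82 and 9.55 CPM on BAPN, against 1.89, 3.72 and 5.23 CPM on plain water, so that every BAPN library lay above every library on plain water (log2 change 0.77 ± 0.15 (SE), edgeR adjusted p = 0.0149). Hykk and Tbx2 were named after their values were seen. Of the genes tested, 2 (0.0141%) lay wholly above the libraries on plain water, and no gene lay wholly below. Tbx2, a T-box repressor, came nearest to that with 4.24, 8.92 and 11.3 CPM on BAPN, against 10.9, 14.7 and 35.6 CPM on plain water, and was lower in every BAPN library within each genotype (log2 change -0.96 ± 0.19 (SE), edgeR adjusted p = 0.0147). It was highest in WT replicate 5 and KI replicate 5, which are rich in other tissue. With neuron and airway scores as covariates, a fit added after the data were seen, Tbx2 was at -0.41 (edgeR adjusted p = 0.146) and Hykk at 0.48 (edgeR adjusted p = 0.0621). Within genotypes, 3 genes (0.0211%) separated in this way.

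Other genes with the smallest p rose in both genotypes. Capn6, a calpain without protease activity that binds microtubules, had 6.66, 12 and 31.1 CPM on BAPN, against 1.53, 4.63 and 7.97 CPM on plain water. Cd109, a membrane protein that dampens TGF-beta signalling, had 59.3, 74.7 and 251 CPM on BAPN, against 19.3, 42.1 and 72 CPM on plain water. In Capn6 12 and in Cd109 9 of the 13 BAPN libraries exceeded the highest on plain water (log2 changes 1.45 ± 0.27, adjusted p = 0.0133, and 1.19 ± 0.21, adjusted p = 0.0133 by edgeR). Adamts12, a secreted metalloproteinase, had 6.67, 14.5 and 22.1 CPM on BAPN, against 4.7, 6.78 and 9.43 CPM on plain water. Kcnd1, a voltage-gated potassium channel, had 3.16, 5.43 and 9.08 CPM on BAPN, against 1.36, 2.35 and 4.92 CPM on plain water. Adamts12 changed by 0.82 in KI and 1.26 in WT and Kcnd1 by 0.97 in KI and 1.21 in WT, and in both genes all WT-BAPN libraries were above all WT libraries. Commd10, of a complex that recycles membrane proteins from endosomes, rose least of these 5 (log2 change 0.53 ± 0.10 (SE), edgeR adjusted p = 0.0133). Igfbp2, which binds insulin-like growth factors, was named from the list of growth factors and receptors. It had 22.1, 52.4 and 384 CPM on BAPN, against 7.85, 18.8 and 32.5 CPM on plain water, and 10 BAPN libraries were above the highest on plain water (log2 change 1.97 ± 0.41 (SE), edgeR adjusted p = 0.0171).

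**Figure D2:**
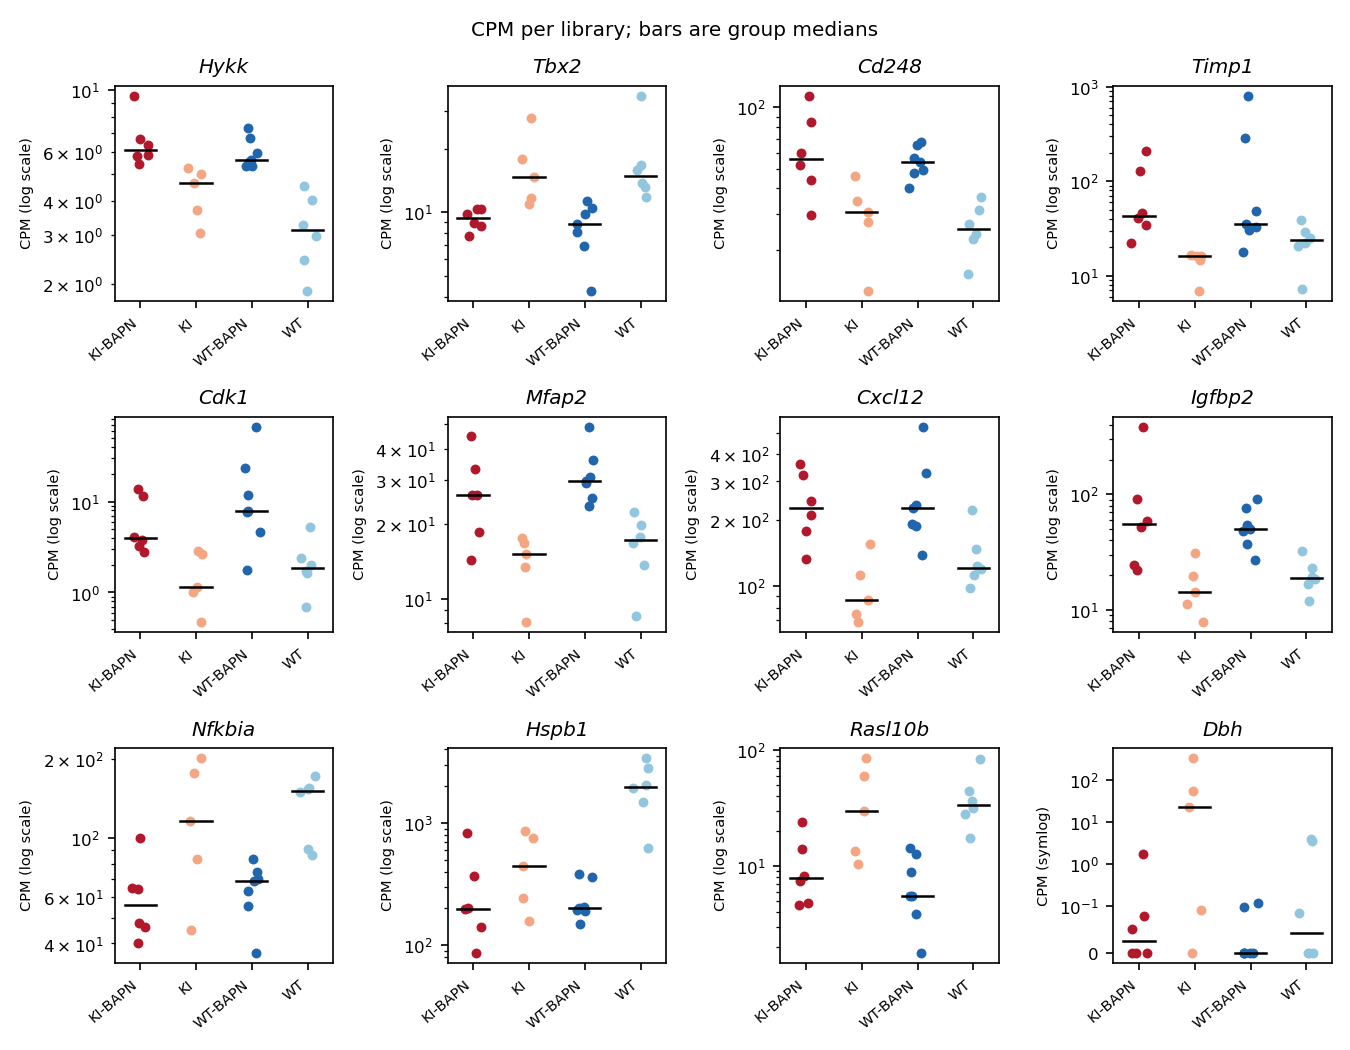
CPM of 12 genes in each library, with a symmetric log scale for Dbh and log scales otherwise. Points are libraries of KI-BAPN, KI, WT-BAPN and WT, and bars are group medians. Hykk shows no overlap between BAPN and plain water, Tbx2 none within a genotype, and Dbh is high in 3 KI libraries on plain water.

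By count, genes of mitosis were the largest of the 59 lists examined to rise. The lists were chosen with earlier results of these data known, so this ranking is no separate evidence. Of 40 tested members 31 rose and none fell (1.74% of all genes rose), the median log2 change was 2.11 (1.30 in KI and 2.58 in WT) beside -0.02 over all genes tested, and 39 had a positive sign. Entry into mitosis is driven by cyclin B with the kinase Cdk1, chromosomes attach to the spindle through kinetochores, and many of these genes share promoter elements, CCAAT boxes and the cell cycle genes homology region (CHR), which repress or activate them with the cell cycle. Promoters of 4 genes that rose are shown because they hold CCAAT and, in all but Ccnb1, TTTGAA, the core letters of the CHR. Each is the RefSeq window (GRCm38.p6) from 250 bases before to 50 after the gene start, on the minus strand of the chromosome and given 5′ to 3′ along the gene, at chr10:69352863-69353162 for Cdk1, chr13:100786437-100786736 for Ccnb1, chr2:69206164-69206463 for Spc25 and chr11:99024140-99024439 for Top2a. Capitals mark the letters CCAAT and TTTGAA, searched on both strands (ATTGG and TTCAAA are the other strand).
Cdk1: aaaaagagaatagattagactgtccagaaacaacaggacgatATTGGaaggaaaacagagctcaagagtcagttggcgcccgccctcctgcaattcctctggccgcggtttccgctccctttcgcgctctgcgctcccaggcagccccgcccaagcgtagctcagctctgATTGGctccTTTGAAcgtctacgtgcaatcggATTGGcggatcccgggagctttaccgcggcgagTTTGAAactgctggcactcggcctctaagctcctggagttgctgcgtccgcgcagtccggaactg
Ccnb1: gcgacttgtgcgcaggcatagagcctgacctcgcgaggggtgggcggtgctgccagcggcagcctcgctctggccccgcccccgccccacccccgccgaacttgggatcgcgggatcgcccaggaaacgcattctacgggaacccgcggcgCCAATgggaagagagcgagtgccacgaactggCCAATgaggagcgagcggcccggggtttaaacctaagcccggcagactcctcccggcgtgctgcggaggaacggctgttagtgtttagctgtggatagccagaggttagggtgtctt
Spc25: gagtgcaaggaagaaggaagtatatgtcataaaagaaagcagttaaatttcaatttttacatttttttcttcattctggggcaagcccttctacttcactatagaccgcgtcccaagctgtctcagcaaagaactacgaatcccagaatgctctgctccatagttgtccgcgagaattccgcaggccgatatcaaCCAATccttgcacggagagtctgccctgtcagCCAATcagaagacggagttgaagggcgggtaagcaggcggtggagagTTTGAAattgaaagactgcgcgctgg
Top2a: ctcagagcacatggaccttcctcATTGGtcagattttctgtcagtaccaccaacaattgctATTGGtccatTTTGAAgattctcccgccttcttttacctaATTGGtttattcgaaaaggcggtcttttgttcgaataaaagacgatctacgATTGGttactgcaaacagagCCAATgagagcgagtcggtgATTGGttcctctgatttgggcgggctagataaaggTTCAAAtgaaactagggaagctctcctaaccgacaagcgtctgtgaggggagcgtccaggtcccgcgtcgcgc

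Both motifs occur in the windows of Cdk1, Spc25 and Top2a, and that of Ccnb1 holds CCAAT alone. Of the 31 mitosis genes that rose, 26 had a window in the table. CCAAT was found for 80.8% of them, TTTGAA for 80.8% and both for 73.1%, beside 42.7%, 14.5% and 5.87% of the 11167 tested genes with a window. Of the 40 tested mitosis genes, called or not, 34 had a window, with shares of 79.4%, 76.5% and 67.6% in the same order. Shares over the whole list thus lay near those of its members that rose. A match counts for a gene if any of its windows holds it. No match overlaps another in the 4 windows shown. Outside the mitosis list, 164 genes that rose had a window, 25.6% with TTTGAA and 45.1% with CCAAT, and of 192 genes that fell 13% had TTTGAA and 40.1% CCAAT. Among 31 tested DNA replication genes with a window 16.1% had TTTGAA and 67.7% CCAAT. The windows of Nuf2 and Nusap1, which both rose, held neither motif. A match describes these letters and is not a binding site.

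Cdk1 had 1.76, 7.72 and 66.5 CPM on BAPN, against 0.47, 1.7 and 5.26 CPM on plain water (log2 change 2.51 ± 0.52 (SE), edgeR adjusted p = 0.017). Ccnb1, its cyclin partner, had 0.543, 4.79 and 48.4 CPM on BAPN, against 0.175, 0.904 and 2.75 CPM on plain water (log2 change 2.75 ± 0.60 (SE), edgeR adjusted p = 0.019). For both genes 7 of 13 BAPN libraries were above the highest library on plain water, and the rest overlapped it. The kinetochore genes Spc25 and Nuf2, of the Ndc80 complex that holds microtubules, changed alike. Spc25 had 1.04, 4.95 and 32.3 CPM on BAPN, against 0.188, 0.901 and 1.83 CPM on plain water, and Nuf2 had 0.672, 4.37 and 31.7 CPM on BAPN, against 0.188, 0.691 and 2.17 CPM on plain water (log2 changes 2.6 ± 0.53, adjusted p = 0.0156, and 2.69 ± 0.57, adjusted p = 0.019 by edgeR). Top2a, the topoisomerase that untangles sister chromosomes, had 4.44, 15.3 and 84.7 CPM on BAPN, against 0.329, 2.53 and 12.2 CPM on plain water. Kif4, a chromosome-bound kinesin, had 0.641, 1.78 and 16.5 CPM on BAPN, against 0.139, 0.507 and 1.26 CPM on plain water. Top2a changed by 1.82 in KI and 2.72 in WT and Kif4 by 1.96 in KI and 2.9 in WT. Hmmr, a hyaluronan receptor that also works at the spindle, and Iqgap3, a scaffold of dividing cells, changed by 2.81 ± 0.61, adjusted p = 0.019 and by 2.47 ± 0.54, adjusted p = 0.0192 (edgeR), with every WT-BAPN library above every WT library. Iqgap3 changed less in KI (1.42) than in WT (3.42), with an unadjusted p of 0.0401 for the difference that did not pass adjustment. The spindle and kinetochore genes Ckap2 (2.23), Knstrn (2.2) and Nusap1 (1.75) and the mitotic gene Pimreg (2.14) rose too, as did the proliferation marker Mki67 (2.25), the survivin gene Birc5 (2.13) and the cyclins Ccna2 (2.06) and Ccnb2 (2.12). Foxm1, the transcription factor that drives many of them, rose by 1.27.

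Levels of the mitosis genes varied widely within the BAPN groups. Their summed level was 122, 267 and 1413 CPM on BAPN, against 95.3, 150.2 and 229 CPM on plain water. Of the 7 BAPN libraries above all libraries on plain water, 2 were KI-BAPN (replicates 3 and 5) and 5 were WT-BAPN (replicates 3 to 7), with the highest sum in WT-BAPN replicate 7. The other 6 lay within the range on plain water. The sum had a median of 146 CPM in KI-BAPN, against 150.2 in KI, and 325 in WT-BAPN, against 146 in WT. Anln, an actin-binding protein of the cleavage furrow, was the 1 member with a negative sign. It held 25 to 179 CPM per library and weighs heavily in the sum. In KI it held 57.7 to 108 CPM and in KI-BAPN 25 to 104 CPM, so the sum does not show how the other members stood in KI. Over the 40 members the median log2 change in KI was 1.30. Among libraries on plain water, KI replicate 3, 4 or 5 was the lowest library for 31 of the 40 members. Summed macrophage markers were 175, 429 and 3418 CPM on BAPN, against 90.1, 275 and 3244 CPM on plain water, and adventitial fibroblast markers 2493, 4981 and 8502 CPM on BAPN, against 2455, 4087 and 8660.0 CPM on plain water. Their part in the mitosis result was not tested. The count was 17 on leaving out WT replicate 4, 18 on leaving out WT replicate 1, 20 on leaving out any 1 of KI replicate 5 or WT replicate 6. It was 39 of 40 without the 4 libraries rich in other tissue, with a median of 3.05.

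**Figure D3:**
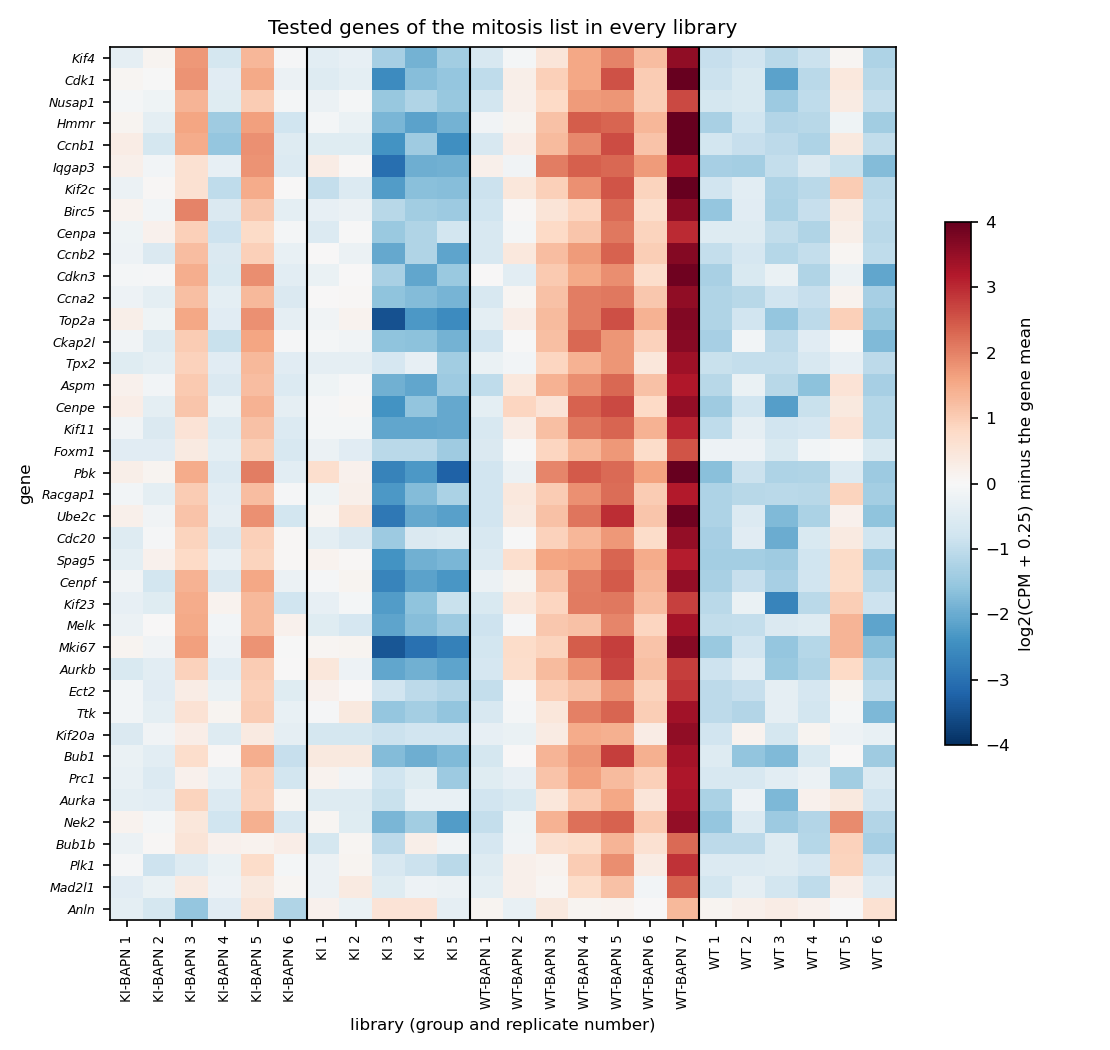
The 40 tested mitosis genes (rows) in 24 libraries (columns, grouped as KI-BAPN, KI, WT-BAPN and WT), coloured by log2(CPM + 0.25) minus the gene's mean over all libraries. KI-BAPN replicates 3 and 5 and WT-BAPN replicates 3 to 7 are above the mean for most genes, KI replicates 3 to 5 are lowest, and Anln in the last row does not follow.

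Genes of DNA replication moved less. Of 37 tested 4 rose and none fell, with a median of 0.49 and 34 positive signs. Tyms, thymidylate synthase, had 6.26, 8.69 and 41.5 CPM on BAPN, against 4.89, 5.87 and 8.87 CPM on plain water (log2 change 1.0 ± 0.26 (SE), edgeR adjusted p = 0.037). Gins2, of the replicative helicase, had 2.0, 2.94 and 11.7 CPM on BAPN, against 0.785, 1.69 and 2.75 CPM on plain water (log2 change 1.08 ± 0.29 (SE), edgeR adjusted p = 0.0433). In Tyms 6 and in Gins2 9 BAPN libraries were above the highest on plain water. Exons of Gse1 on the opposite strand overlap Gins2, so reads of this pair may not be told apart. E2f1, a transcription factor of S phase entry, changed by 0.92 ± 0.26, adjusted p = 0.0458, and Orc6, of the origin recognition complex, by 0.31 ± 0.08, adjusted p = 0.0452 (edgeR). The count was 0 on leaving out any 1 of KI-BAPN replicate 3, WT-BAPN replicate 5, KI replicate 5 or WT replicates 1, 2, 3, 4 and 6, 1 on leaving out any 1 of KI-BAPN replicate 6, WT-BAPN replicates 2, 3 and 4 or KI replicate 4, 2 on leaving out any 1 of KI-BAPN replicates 1 and 2 or WT-BAPN replicates 6 and 7, 9 on leaving out WT replicate 5, and 17 without the 4 libraries.

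The lysyl oxidases, the enzymes that BAPN inhibits, did not pass the test. Loxl2 came nearest, with 38.9, 97.4 and 171 CPM on BAPN, against 25.7, 48 and 134 CPM on plain water (log2 change 0.70 ± 0.21 (SE), edgeR adjusted p = 0.0584). Lox had 240.3, 636 and 1251 CPM on BAPN, against 84.5, 427 and 807 CPM on plain water, and its change was 0.20 in KI and 0.84 in WT (log2 change 0.54 ± 0.31 (SE), edgeR adjusted p = 0.332). Values for Loxl1, Loxl3 and Loxl4 were 0.21, -0.01 and 0.35, all with overlapping libraries. None of the 5 genes passed in the pooled fit. Without the 4 libraries 1 of them, Loxl2, passed at 0.92 (edgeR adjusted p = 0.00634), DESeq2 called 1 and limma voom 2.

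Among fibrillar and elastic matrix genes, some collagen chains rose and elastin did not pass. Of 22 collagen chain genes 4 rose and none fell, with a median of 0.58 and 19 positive signs. Col1a1, the main chain of type I collagen, had 853, 2343 and 4638 CPM on BAPN, against 229, 1040.2 and 1875 CPM on plain water (log2 change 1.13 ± 0.31 (SE), edgeR adjusted p = 0.0439). Col16a1, a chain that sits at fibril surfaces, had 30.5, 43.4 and 86.4 CPM on BAPN, against 20.9, 26.4 and 42.6 CPM on plain water (log2 change 0.67 ± 0.16 (SE), edgeR adjusted p = 0.0263). In Col1a1 10 and in Col16a1 9 of 13 BAPN libraries were above the highest on plain water. Col6a3, of microfibrillar type VI collagen, changed by 0.85 ± 0.21, adjusted p = 0.0324 and Col5a2, of the type V collagen that sets fibril width, by 0.77 ± 0.22, adjusted p = 0.0481 (edgeR). The collagen change was 0.88 in KI and 1.34 in WT for Col1a1 and 0.31 in KI and 1.16 in WT for Col5a2. The count was 1 on leaving out any 1 of KI-BAPN replicate 1, WT-BAPN replicates 3 and 4, KI replicate 5 or WT replicates 2 and 3, 2 on leaving out any 1 of WT-BAPN replicates 2, 5 and 6, KI replicate 4 or WT replicates 1, 4 and 6, and 8 without the 4 libraries. Summed collagen chains were 9584, 21421 and 29408 CPM on BAPN, against 3825, 12939 and 19279 CPM on plain water, with 9 BAPN libraries above the highest on plain water. All 7 WT-BAPN libraries were above all WT libraries (20436 to 29408 CPM, against 3825 to 16933), while KI-BAPN had a median of 12391 CPM, against 12939 in KI.

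Of 19 elastic fibre genes 1 rose and none fell, and 17 had a positive sign. The elastic fibre count was 2 on leaving out any 1 of KI-BAPN replicates 4 and 5, WT-BAPN replicate 1 or WT replicate 5, and 4 without the 4 libraries. The gene that rose was Mfap2, a glycoprotein of the microfibrils that carry elastin, with 14.4, 29.2 and 48.9 CPM on BAPN, against 8.07, 16.8 and 22.3 CPM on plain water. Its 11 BAPN libraries above the highest on plain water and equal changes in both genotypes (0.94 in KI and 0.95 in WT) gave log2 change 0.95 ± 0.18 (SE), edgeR adjusted p = 0.0133. Eln, elastin itself, had 3580.0, 13948 and 30382 CPM on BAPN, against 253, 5532 and 15448 CPM on plain water. Eln changed by 0.11 in KI and 1.86 in WT and did not pass (log2 change 1.04 ± 0.48 (SE), edgeR adjusted p = 0.222). P4ha3, a subunit of the prolyl hydroxylase that stabilises collagen helices, had 0.31, 2.01 and 13.1 CPM on BAPN, against 0.0856, 0.678 and 2.23 CPM on plain water, and was the 1 of 25 collagen processing genes to rise (log2 change 2.26 ± 0.59 (SE), edgeR adjusted p = 0.0365). That count was 0 on leaving out any 1 of KI-BAPN replicates 3 and 6, WT-BAPN replicates 4 and 5, KI replicates 4 and 5 or WT replicates 1, 3, 4 and 6, 2 on leaving out any 1 of WT-BAPN replicate 3 or WT replicate 2.

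Matricellular proteins and proteases of matrix turnover included the largest rises. Of 21 matricellular genes 4 rose and none fell (median 0.56). Cthrc1, secreted by activated fibroblasts and smooth muscle cells of injured arteries, had 1.71, 6.92 and 103 CPM on BAPN, against 0.645, 1.13 and 9.06 CPM on plain water (log2 change 3.44 ± 0.74 (SE), edgeR adjusted p = 0.019). All 13 BAPN libraries were above the median on plain water, and 5 were above the highest. Spp1, osteopontin, had 0.888, 4.5 and 1075 CPM on BAPN, against 0.423, 2.42 and 8.58 CPM on plain water (log2 change 4.79 ± 1.17 (SE), edgeR adjusted p = 0.0289). Its medians differ little, and 6 BAPN libraries were above the highest on plain water. Thbs2, thrombospondin 2, changed by 0.87 ± 0.22, adjusted p = 0.034, and Ccn4, a Wnt-induced secreted protein, by 1.52 ± 0.42, adjusted p = 0.0455 (edgeR). The count was 1 on leaving out any 1 of WT replicates 1 and 4, 2 on leaving out any 1 of KI-BAPN replicates 1 and 3, WT-BAPN replicate 5 or KI replicate 5. Of 24 metalloproteinases and inhibitors 3 rose and none fell. Timp1, an inhibitor of matrix metalloproteinases, had 18, 40.3 and 801 CPM on BAPN, against 6.85, 16.7 and 38.7 CPM on plain water (log2 change 2.72 ± 0.58 (SE), edgeR adjusted p = 0.019). Mmp12, the macrophage elastase, had 0.0707, 0.995 and 42.7 CPM on BAPN, against 0.0563, 0.324 and 2.29 CPM on plain water (log2 change 3.25 ± 0.90 (SE), edgeR adjusted p = 0.0456), and Adamts12 is given above. Timp1 in all KI-BAPN libraries exceeded all KI libraries, and 7 of 13 BAPN libraries exceeded the highest on plain water. Of 20 proteoglycan and hyaluronan genes 1 rose, Hmmr, and 1 fell. Has3, a hyaluronan synthase, was the one that fell, with 2.6, 3.75 and 6.94 CPM on BAPN, against 2.27, 9.93 and 18.6 CPM on plain water (log2 change -1.25 ± 0.26 (SE), edgeR adjusted p = 0.0176). Proteoglycan and hyaluronan genes that rose were 2 on leaving out WT replicate 2, 3 on leaving out WT replicate 5, and those that fell 2 on leaving out KI-BAPN replicate 5, with 3 each without the 4 libraries. WT replicate 5 and KI replicate 5 had the lowest levels of several matrix genes on plain water, Col1a1 and Timp1 among them. Without KI replicate 5 Col1a1 was at 1.03 (edgeR adjusted p = 0.0633), Col6a3 at 0.80 (edgeR adjusted p = 0.0593) and Thbs2 at 0.81 (edgeR adjusted p = 0.0633).

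Contractile smooth muscle genes had lower values as a group with few calls. Of 30 tested 1 fell and none rose, 29 had a negative sign and the median was -0.49. Myh11, smooth muscle myosin, had 2046, 5535 and 7992 CPM on BAPN, against 2521, 7905 and 11872 CPM on plain water and did not pass (log2 change -0.49 ± 0.23 (SE), edgeR adjusted p = 0.236), and Acta2 changed by -0.55 ± 0.30, adjusted p = 0.30 (edgeR). Tagln, transgelin, had 9.73, 15.5 and 29.4 CPM on BAPN, against 12.4, 23.5 and 54.6 CPM on plain water and changed by -0.68 ± 0.23, adjusted p = 0.0966 (edgeR). Tagln is uncertain, since exons of other genes on the opposite strand overlap it in the GENCODE annotation of GRCm38 and its level was far below that of Acta2. The number that fell was 0 on leaving out any 1 of KI-BAPN replicate 1, WT-BAPN replicates 2, 3, 4, 5, 6 and 7, KI replicates 3, 4 and 5 or WT replicates 1, 2, 3, 4 and 6, 2 on leaving out KI replicate 1, 4 on leaving out KI-BAPN replicate 5, 5 on leaving out any 1 of KI replicate 2 or WT replicate 5. Without the 4 libraries 20 of 30 fell, with a median of -0.65, and limma voom called 18 and DESeq2 7. Acta2 and Myh11 were lowest, among WT libraries, in WT replicate 5, at 4198 and 2521 CPM. Of 17 genes of modulated smooth muscle and cartilage 2 rose, Spp1 and Tnfrsf11b, and the median was 0.28 (0.91 in KI and -0.12 in WT). This count was 0 on leaving out any 1 of WT replicates 1 and 4, 1 on leaving out any 1 of KI-BAPN replicates 1 and 3, WT-BAPN replicate 5, KI replicate 5 or WT replicate 3, 6 on leaving out WT replicate 5. Tnfrsf11b, osteoprotegerin, which blocks the RANK ligand, had 11.8, 20.5 and 219 CPM on BAPN, against 3.32, 10.5 and 20.2 CPM on plain water (log2 change 1.74 ± 0.45 (SE), edgeR adjusted p = 0.0352).

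**Figure D4:**
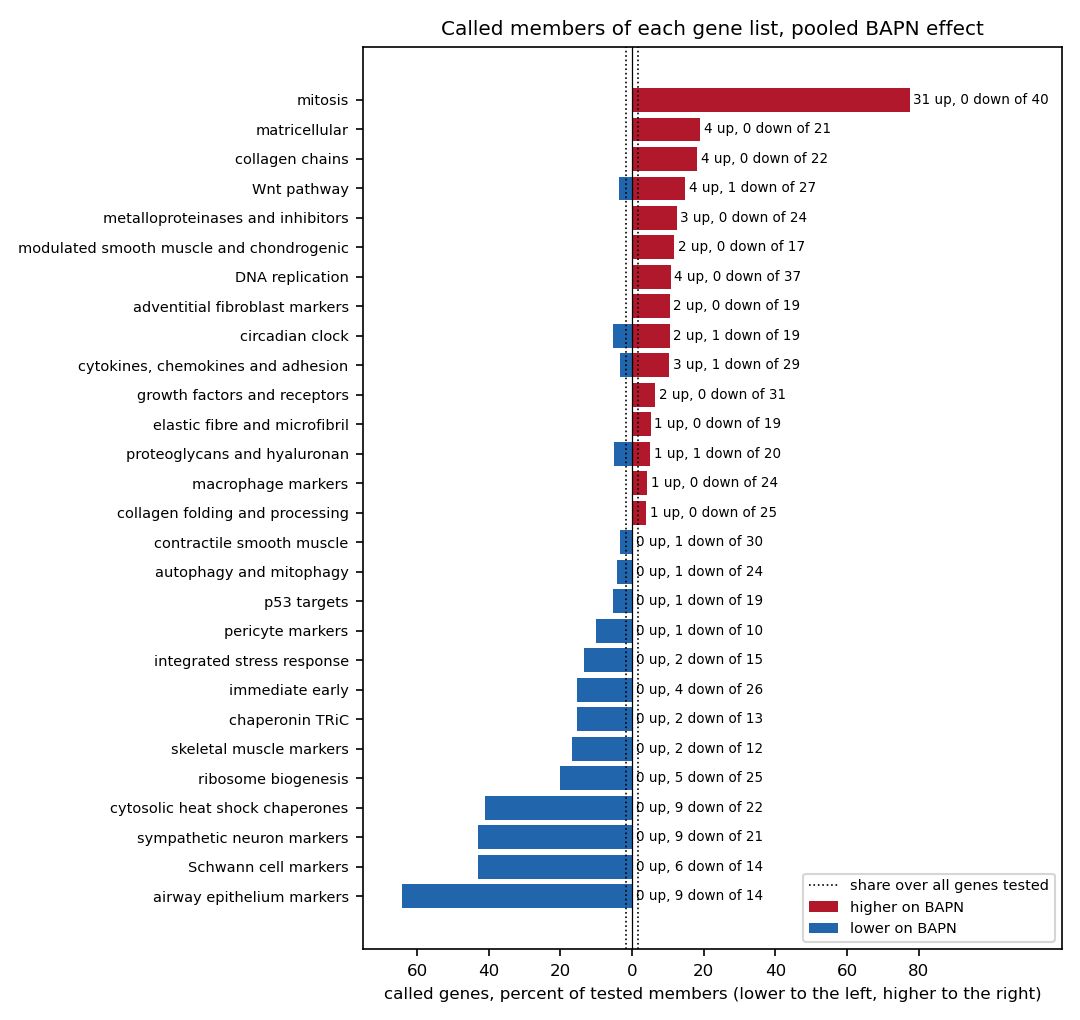
Share of tested members that rose (red, to the right) and fell (blue, to the left) on BAPN for the 28 gene lists with at least 1 called gene, in percent, with counts printed beside each bar. Dotted lines mark the shares over all genes tested, 1.74% higher and 1.77% lower. Mitosis genes reach furthest to the right with 31 of 40, and airway epithelium markers furthest to the left with 9 of 14.

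Macrophage and cytokine genes had mostly positive signs, and few passed. Of 24 macrophage markers 1 rose, 23 had a positive sign, and the median was 1.18 (2.38 in KI and 0.20 in WT). Trem2, a lipid-sensing receptor of macrophages, had 0.888, 3.36 and 36.6 CPM on BAPN, against 0.276, 0.916 and 2.75 CPM on plain water (log2 change 2.6 ± 0.62 (SE), edgeR adjusted p = 0.0275), with 8 BAPN libraries above the highest on plain water. The macrophage count was 0 on leaving out any 1 of WT-BAPN replicate 5 or KI replicate 5, 2 on leaving out any 1 of KI-BAPN replicate 5 or WT-BAPN replicates 1 and 7, 3 on leaving out KI replicate 2, 16 on leaving out WT replicate 5, which had 3244 CPM in summed macrophage markers, and 8 without the 4 libraries. Trem2 was at 2.15 (edgeR adjusted p = 0.0675) without WT-BAPN replicate 5 and at 2.53 (edgeR adjusted p = 0.0505) without KI replicate 5. Cxcl12, the chemokine that retains CXCR4-bearing leukocytes, had 133, 226 and 532 CPM on BAPN, against 68.7, 113 and 223 CPM on plain water (log2 change 1.09 ± 0.22 (SE), edgeR adjusted p = 0.015). Il1b, interleukin 1 beta, had 0.0517, 0.287 and 4.05 CPM on BAPN, against 0, 0.0941 and 0.40 CPM on plain water (log2 change 2.85 ± 0.74 (SE), edgeR adjusted p = 0.0362), and Ccl7, a monocyte chemokine, had 0.615, 1.98 and 25 CPM on BAPN, against 0.113, 0.904 and 4.0 CPM on plain water (log2 change 2.56 ± 0.71 (SE), edgeR adjusted p = 0.0453). Il1b and Ccl7 were at low levels, with 6 and 5 BAPN libraries above the highest on plain water. Nfkbia, the inhibitor that holds NF-kappaB in the cytoplasm, fell, with 36.7, 64.1 and 101 CPM on BAPN, against 45, 149 and 202 CPM on plain water (log2 change -1.05 ± 0.20 (SE), edgeR adjusted p = 0.0145) and equal changes of -1.04 in KI and -1.06 in WT. These were the 4 called genes of 29 cytokine, chemokine and adhesion genes, of which 22 had a positive sign. The 3 that rose became 1 on leaving out any 1 of KI-BAPN replicates 3 and 6, WT-BAPN replicates 5, 6 and 7, KI replicate 5 or WT replicates 1, 3, 4 and 6, 5 on leaving out WT-BAPN replicate 1, 10 on leaving out WT replicate 5, and 8 without the 4 libraries. Summed mesothelium markers, in which KI-BAPN replicate 3 was highest on BAPN and WT replicate 5 on plain water, were 25.4, 69 and 328 CPM on BAPN, against 28, 48 and 1042 CPM on plain water, and summed erythroid markers 67.6, 259 and 3753 CPM on BAPN, against 50.6, 164 and 372 CPM on plain water. Their part in the immune values was not tested.

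Of 19 adventitial fibroblast markers 2 rose, and the median was 0.34 (0.91 in KI and -0.36 in WT). Their summed level, given above, exceeded the highest library on plain water in 0 BAPN libraries, with a median of 4987 CPM in KI-BAPN, against 3943 in KI, and of 4981 CPM in WT-BAPN, against 5369 in WT. Cd248, endosialin of perivascular fibroblasts, had 29.6, 54 and 114 CPM on BAPN, against 12.5, 27.5 and 46.2 CPM on plain water, and 10 BAPN libraries were above the highest on plain water (log2 change 1.07 ± 0.20 (SE), edgeR adjusted p = 0.0133). Igf1, insulin-like growth factor 1, had 26.5, 95.5 and 364 CPM on BAPN, against 10.5, 31.3 and 69.5 CPM on plain water (log2 change 1.4 ± 0.39 (SE), edgeR adjusted p = 0.0487). Igf1 changed by 2.1 in KI and 0.83 in WT. The adventitial count was 1 on leaving out any 1 of KI-BAPN replicates 1, 2, 3 and 6, WT-BAPN replicates 2, 4, 5, 6 and 7, KI replicates 1, 3, 4 and 5 or WT replicates 1, 3, 4 and 6, and 1 without the 4 libraries. Of 31 growth factors and receptors the 2 that rose were Igf1 and Igfbp2, its binding protein described above, and that count was 1 on leaving out any 1 of KI-BAPN replicates 1, 2, 3 and 6, WT-BAPN replicates 2, 4, 5, 6 and 7, KI replicates 1, 3, 4 and 5 or WT replicates 1, 2, 3, 4 and 6, 4 on leaving out WT replicate 5.

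Wnt pathway genes moved both ways, 4 of 27 higher and 1 lower. The ligands Wnt5b and Wnt5a, which signal mainly outside the beta-catenin route, both rose. Wnt5b had 3.8, 7.02 and 9.64 CPM on BAPN, against 1.89, 4.02 and 6.58 CPM on plain water (log2 change 0.78 ± 0.18 (SE), edgeR adjusted p = 0.0223), and Wnt5a changed by 0.91 ± 0.25, adjusted p = 0.0474 (edgeR), with all KI-BAPN libraries above all KI libraries. Dkk3, a secreted Dickkopf-family protein, had 350.1, 558 and 788 CPM on BAPN, against 135, 399 and 484 CPM on plain water, and 12 BAPN libraries were above the highest on plain water (log2 change 0.69 ± 0.18 (SE), edgeR adjusted p = 0.033). The secreted Wnt binder Sfrp4 rose by 1.29 and its relative Sfrp5 fell (log2 change -3.23 ± 0.83 (SE), edgeR adjusted p = 0.034). Sfrp5 was at -1.42 (edgeR adjusted p = 0.191) without the 4 libraries. The count of genes that rose was 1 on leaving out any 1 of KI-BAPN replicate 1, WT-BAPN replicate 4, KI replicate 5 or WT replicate 1, 2 on leaving out any 1 of KI-BAPN replicates 2, 3 and 6, WT-BAPN replicates 3, 5 and 6, KI replicate 1 or WT replicates 3 and 4, and that of genes that fell 0 on leaving out any 1 of KI-BAPN replicates 1 and 3, WT-BAPN replicates 3, 4 and 5, KI replicate 5 or WT replicate 5.

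Cytosolic heat shock chaperones, which fold proteins under stress and at rest, were lower on BAPN. Of 22 tested 9 fell and none rose (1.77% of all genes fell), all 22 had a negative sign and the median was -0.77 (-0.38 in KI and -1.14 in WT). Hspb1, the small heat shock protein HSP25, had 85.8, 201 and 821 CPM on BAPN, against 159, 862 and 3420.1 CPM on plain water (log2 change -2.05 ± 0.45 (SE), edgeR adjusted p = 0.0195). Hspb8, a small heat shock protein of chaperone-assisted autophagy, had 108, 161 and 252 CPM on BAPN, against 159.7, 268 and 457 CPM on plain water (log2 change -0.79 ± 0.16 (SE), edgeR adjusted p = 0.015). In Hspb1 6 and in Hspb8 7 of 11 libraries on plain water were above the highest BAPN library. The co-chaperones Fkbp4 and Stip1, which bind Hsp90, changed by -0.82 ± 0.19, adjusted p = 0.0223 and by -1.03 ± 0.25, adjusted p = 0.0274 (edgeR). Hsp90aa1 (-1.09), Hsp90ab1 (-0.76), Hspa8 (-1.17), Ahsa1 (-0.75) and Cacybp (-0.79) fell as well. The change was -0.71 in KI and -3.09 in WT for Hspb1 and -0.26 in KI and -1.28 in WT for Fkbp4, with an unadjusted p of 0.00265 and 0.00362 for the difference, which did not pass adjustment. The summed level was 3026 to 9579 CPM in KI-BAPN, against 4269.8 to 10466 in KI, and 3703 to 9016 CPM in WT-BAPN, against 9216 to 25902 in WT, so that the WT pair had no overlap and the KI pair did. The count was 4 on leaving out any 1 of KI replicate 5 or WT replicate 4, 5 on leaving out WT-BAPN replicate 4, 14 on leaving out KI-BAPN replicate 4, and 17 of 22 without the 4 libraries. The labels give no day, time or order of tissue collection. Of 13 genes of the chaperonin TRiC and prefoldin 2 fell, the prefoldin subunit Pfdn2 (log2 change -0.41 ± 0.09 (SE), edgeR adjusted p = 0.019) and Cct7 (-0.62 ± 0.17, adjusted p = 0.0421). Their number was 1 on leaving out any 1 of KI-BAPN replicates 1, 3 and 6, WT-BAPN replicates 1, 2, 3, 4, 5 and 6, KI replicates 4 and 5 or WT replicates 1, 2, 3, 4 and 6, and 6 without the 4 libraries.

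Several stress and growth programmes had lower values too. Of 26 immediate early genes, which respond within minutes to a stimulus, 4 fell and none rose (median -0.61). Maff, a small Maf factor, had 11.7, 17.1 and 28.2 CPM on BAPN, against 7.5, 53.1 and 68.6 CPM on plain water, with 9 libraries on plain water above the highest BAPN library (log2 change -1.18 ± 0.25 (SE), edgeR adjusted p = 0.019). The mRNA decay factor Zfp36 changed by -0.93 ± 0.21, adjusted p = 0.0223, the antiproliferative gene Btg2 by -0.99 ± 0.23, adjusted p = 0.0242 and the orphan receptor Nr4a3 by -2.07 ± 0.54, adjusted p = 0.0362 (edgeR). Nr4a3 was highest in WT replicate 5 at 308 CPM and, among KI libraries, in KI replicate 5 at 66 CPM. The other KI libraries had 2.34 to 17.9 CPM and KI-BAPN 4.11 to 24.9 CPM. Its call was lost in 15 of 41 settings, among them without KI replicate 5 and with neuron and airway covariates. Without the 4 libraries 9 of 26 immediate early genes fell. Btg2 was also the 1 of 19 p53 targets to fall, a count that was 2 on leaving out any 1 of KI-BAPN replicates 4 and 5, 3 on leaving out any 1 of KI replicates 1 and 2 or WT replicate 5, and 4 without the 4 libraries. Of 15 genes of the integrated stress response 2 fell, its transcription factor Atf4 (log2 change -0.63 ± 0.16 (SE), edgeR adjusted p = 0.0314) and the mTORC1 inhibitor Ddit4 (-1.47 ± 0.39, adjusted p = 0.0377). The list had a median of -0.08 (0.05 in KI and -0.61 in WT), and its count was 0 on leaving out any 1 of KI-BAPN replicate 1 or KI replicate 5, 1 on leaving out any 1 of KI-BAPN replicates 2 and 3, WT-BAPN replicates 2, 3 and 5, KI replicate 4 or WT replicates 1, 2, 4 and 6, 4 on leaving out KI-BAPN replicate 5, and 4 without the 4 libraries. Of 25 ribosome biogenesis genes 5 fell and 24 had a negative sign (median -0.31). Nop56, a core protein of box C/D snoRNPs, had 45.7, 59.3 and 72.7 CPM on BAPN, against 61.3, 74.8 and 101 CPM on plain water, and 8 BAPN libraries were below the lowest on plain water (log2 change -0.40 ± 0.08 (SE), edgeR adjusted p = 0.0171). Nop2, Nop14, Wdr74 and Ddx21, nucleolar factors of ribosome assembly, changed by -0.45, -0.33, -0.40 and -0.41. The ribosome biogenesis count was 1 on leaving out any 1 of KI-BAPN replicates 1 and 3, WT-BAPN replicates 2, 3, 4, 5 and 6, KI replicate 5 or WT replicates 1 and 4, 2 on leaving out any 1 of KI-BAPN replicate 6, KI replicate 4 or WT replicates 3 and 6, 3 on leaving out KI-BAPN replicate 2, 8 on leaving out KI replicate 1, 10 on leaving out KI replicate 2, and 13 without the 4 libraries. Sqstm1, the autophagy receptor p62, was the 1 of 24 autophagy genes to fall (log2 change -0.42 ± 0.11 (SE), edgeR adjusted p = 0.0429). The autophagy count was 0 on leaving out any 1 of KI-BAPN replicates 1 and 3, WT-BAPN replicates 2, 3, 4, 5, 6 and 7, KI replicates 3, 4 and 5 or WT replicates 1, 2, 3, 4 and 6, 2 on leaving out any 1 of KI replicates 1 and 2, and 3 without the 4 libraries.

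Of 19 clock genes 2 were higher and 1 lower, beside 1.74% and 1.77% of all genes tested. The labels give no time of tissue collection. Per3, a period gene, had 19.5, 41.8 and 100.4 CPM on BAPN, against 15.5, 22.4 and 46.2 CPM on plain water (log2 change 1.04 ± 0.27 (SE), edgeR adjusted p = 0.0362). Bhlhe41, a repressor of the clock, had 15.8, 26.4 and 53.9 CPM on BAPN, against 9.47, 17.8 and 26.5 CPM on plain water (log2 change 0.77 ± 0.21 (SE), edgeR adjusted p = 0.0422). Cry1, a cryptochrome repressor, fell, with 2.19, 5.09 and 13.6 CPM on BAPN, against 6.52, 11.9 and 18.7 CPM on plain water (log2 change -1.0 ± 0.25 (SE), edgeR adjusted p = 0.0324). Bhlhe41 changed by 1.38 in KI and 0.27 in WT and Cry1 by -0.34 in KI and -1.54 in WT. Without the 4 libraries Per3 was at 1.01 (edgeR adjusted p = 0.0541) and Bhlhe41 at 0.64 (edgeR adjusted p = 0.0879). Clock genes that rose were 0 on leaving out any 1 of KI-BAPN replicates 3 and 6, WT-BAPN replicates 2, 4 and 6, KI replicates 4 and 5 or WT replicates 3 and 4, 1 on leaving out any 1 of KI-BAPN replicate 1, WT-BAPN replicate 1, KI replicate 3 or WT replicate 1, and those that fell 0 on leaving out any 1 of WT-BAPN replicates 3, 4 and 5, KI replicate 5 or WT replicates 1, 4 and 6.

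Other genes with the smallest p fell in both genotypes. Rasl10b, a small Ras-like GTPase, had 1.78, 7.51 and 24.3 CPM on BAPN, against 10.5, 31.5 and 86 CPM on plain water (log2 change -2.19 ± 0.39 (SE), edgeR adjusted p = 0.0133). Art3, of the ADP-ribosyltransferase family, had 29.7, 49.4 and 83.7 CPM on BAPN, against 61.4, 91 and 165 CPM on plain water (log2 change -1.02 ± 0.19 (SE), edgeR adjusted p = 0.0133). In Rasl10b 9 and in Art3 10 of the 13 BAPN libraries were below the lowest on plain water. Pdp2, the phosphatase that switches on pyruvate dehydrogenase, had 17.5, 25.5 and 40.4 CPM on BAPN, against 22.5, 54.1 and 78.2 CPM on plain water (log2 change -1.03 ± 0.19 (SE), edgeR adjusted p = 0.0133). Lrch1, a leucine-rich repeat protein, changed by -0.60 ± 0.11, adjusted p = 0.0133 and the zinc finger gene Zfp180 by -0.34 ± 0.06, adjusted p = 0.0133 (edgeR), with every WT-BAPN library below every WT library in both. Mt3, a metallothionein found mainly in brain, had 0.0683, 0.247 and 0.493 CPM on BAPN, against 0.169, 0.925 and 32.7 CPM on plain water. Its high values came from 3 libraries rich in other tissue, KI replicate 2 at 32.7 CPM, KI replicate 5 at 8.55 CPM and WT replicate 5 at 8.52 CPM. Mt3 was at -3.97 ± 0.73, adjusted p = 0.0133 (edgeR), at -1.15 (edgeR adjusted p = 0.0756) without the 4 libraries and at -0.46 (edgeR adjusted p = 0.443) with neuron and airway covariates.

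The 12 largest falls among the named genes were in 8 airway and 4 neuronal genes. Of 14 airway epithelium markers 9 fell (median -7.32). Bpifa1, a secreted protein of the upper airway, had 0, 0.593 and 2.99 CPM on BAPN, against 0.0393, 12.3 and 9679.8 CPM on plain water. Scgb1a1, the club cell secretoglobin, had 0.0683, 0.304 and 2.99 CPM on BAPN, against 0.118, 8.33 and 4372 CPM on plain water. The highest value of both came from WT replicate 5, and the BAPN libraries were all below the median on plain water. Log2 changes were -9.1 ± 1.85, adjusted p = 0.0156, and -7.98 ± 1.67, adjusted p = 0.0171 (edgeR). Without WT replicate 5 they were -5.08 (edgeR adjusted p = 0.0101) and -4.34 (edgeR adjusted p = 0.0101), and without the 4 libraries 9 of 15 airway genes fell, with a median of -3.4. That fit kept other libraries on plain water that held airway RNA. In the libraries it kept on plain water, Bpifa1 ran from 1.57 CPM in WT replicate 4 to 114 CPM in KI replicate 3. KI replicate 1, which was left out, had 0.0393 CPM. Summed airway markers were 2.53, 6.28 and 36.7 CPM on BAPN, against 3.14, 36.9 and 23305 CPM on plain water, and 6 of 11 libraries on plain water were above the highest BAPN library. The cytochrome Cyp2a5, the lectin Reg3g, lactoferrin Ltf and the secretory genes Scgb3a1, Scgb3a2 and Bpifb1 followed, at -10.17, -8.97, -8.14, -7.62, -8.89 and -7.01. DESeq2 gave no adjusted p for these 8 genes.

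Of 21 sympathetic neuron markers 9 fell (median -2.97). Dbh, dopamine beta-hydroxylase of noradrenaline synthesis, had 0, 0 and 1.76 CPM on BAPN, against 0, 0.0925 and 334 CPM on plain water (log2 change -7.68 ± 1.48 (SE), edgeR adjusted p = 0.0143). Snap25, of the synaptic vesicle fusion machinery, had 0, 0 and 1.83 CPM on BAPN, against 0.0452, 0.0856 and 331 CPM on plain water (log2 change -7.11 ± 1.43 (SE), edgeR adjusted p = 0.0156). Medians of Dbh were at or near 0 on both sides, and Dbh was high in 3 KI libraries on plain water. The vesicle genes Rab3c (-7.41), Syt1 (-6.03) and Syn2 (-2.04) and the neuronal GTPase Rit2 (-6.61) fell too. Without the 4 libraries Dbh was at -2.5 (edgeR adjusted p = 0.266), Snap25 at -0.40 (edgeR adjusted p = 0.829) and Syt1 at -0.28 (edgeR adjusted p = 0.855), 1 of 20 neuron markers fell and the list's median was 0.19. The pooled count was 5 on leaving out any 1 of KI-BAPN replicates 1, 2, 3 and 6 or WT-BAPN replicate 4. Slc18a2, the vesicular monoamine transporter, chosen after its values were seen, changed by -4.25 in KI and 0.10 in WT and did not pass in the pooled fit (log2 change -2.01 ± 0.79 (SE), edgeR adjusted p = 0.15).

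Of 14 Schwann cell markers 6 fell, of 12 skeletal muscle markers 2, and of 10 pericyte markers 1, Vtn. Prx, periaxin of peripheral nerve myelin, had 5.98, 10.8 and 15 CPM on BAPN, against 8.48, 17.2 and 36.7 CPM on plain water (log2 change -0.81 ± 0.20 (SE), edgeR adjusted p = 0.0285). Prx overlapped between groups. The Schwann transcription factor Sox10 changed by -2.23 ± 0.59, adjusted p = 0.0378 and Ncmap, another myelin gene, by -2.77 ± 0.72, adjusted p = 0.0362 (edgeR). The skeletal muscle count was 1 on leaving out any 1 of WT-BAPN replicate 5 or WT replicates 1 and 5, 4 on leaving out KI replicate 1, 5 on leaving out KI replicate 2, and 1 without the 4 libraries, and the pericyte count 0 on leaving out any 1 of KI-BAPN replicates 1, 2, 4 and 6, WT-BAPN replicates 1, 2, 3, 4, 5, 6 and 7, KI replicates 2 and 5 or WT replicates 1, 4 and 6. The Schwann count was 0 on leaving out KI replicate 5, 1 on leaving out any 1 of KI-BAPN replicates 1, 2, 3 and 6, WT-BAPN replicates 2, 3, 4, 5 and 6 or WT replicate 5, 2 on leaving out WT-BAPN replicate 7, and 1 without the 4 libraries. Skeletal muscle actin, Acta1, had 0.207, 0.492 and 2.42 CPM on BAPN, against 0.342, 3.81 and 1976 CPM on plain water (log2 change -6.48 ± 1.53 (SE), edgeR adjusted p = 0.0263) and parvalbumin, Pvalb, changed by -5.33 ± 1.29, adjusted p = 0.0285 (edgeR). Acta1 was at 1976 CPM in WT replicate 5. Without the 4 libraries Pvalb was at -1.86 (edgeR adjusted p = 0.112), Sox10 at -0.74 (edgeR adjusted p = 0.299) and Vtn, vitronectin, at -0.67 (edgeR adjusted p = 0.457).

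**Figure D5:**
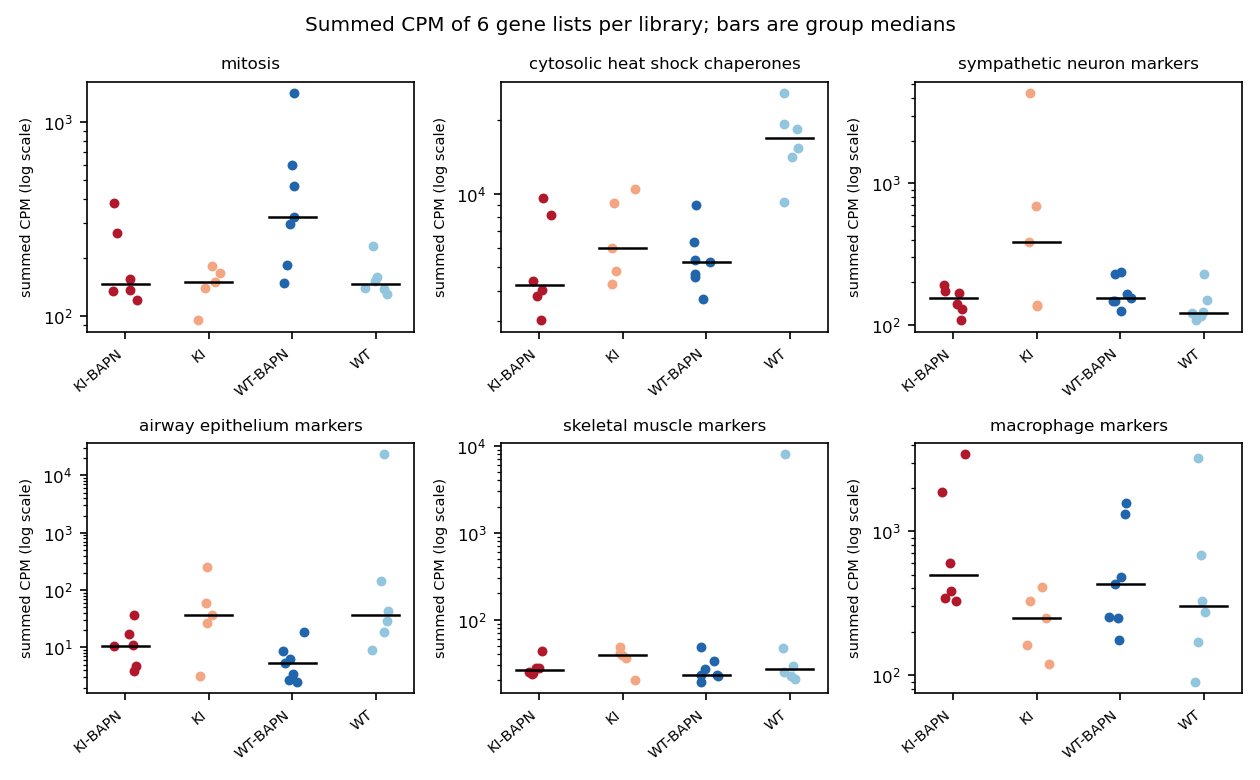
Summed CPM per library (log scale) of 6 gene lists, with points for the libraries of KI-BAPN, KI, WT-BAPN and WT and bars for group medians. WT replicate 5 stands at 23305 CPM for airway and 7991 CPM for skeletal muscle markers, KI replicate 2 at 4340 CPM for neuron markers, and heat shock chaperones are highest in WT on plain water.

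The remaining 31 of 59 gene lists had no member that passed in the pooled fit (edgeR, 552 genes tested, 78 at an unadjusted p under 0.05, 25 called by DESeq2, 102 by limma voom and 48 without the 4 libraries). Over all 14216 genes tested by edgeR, 1266 higher and 1612 lower had an unadjusted p under 0.05. Over all genes, DESeq2 called 8.05%, limma voom 26.1% and the fit without the 4 libraries 15.6%. Nuclear encoded genes of oxidative phosphorylation had a median of -0.06 over 50 genes and mitochondrially encoded ones -0.41 over 13, all 13 with a negative sign. TGF-beta genes had -0.06 over 22 and endothelial markers -0.01 over 22. Interferon-stimulated genes had 0.45 over 28, all with a positive sign and none at an unadjusted p under 0.05. Of the 499 genes, 382 were on no list.

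Calls differed in how far they rested on single libraries. In the 24 fits with 1 library left out, 136 genes of at least 5 CPM (0.957% of those tested) passed each time, 69 that rose and 67 that fell. All 69 of the first kind and 52 of the second also passed without the 4 libraries rich in other tissue. Hykk, Tbx2, Cdk1, Mfap2, Cxcl12, Cd248, Igfbp2, Nfkbia and Hspb1 were among the genes called in all 24. Of the 95 named genes that passed, 34 lost their call without KI replicate 5, and 28 each without WT-BAPN replicate 5 and without WT replicate 4. Of these 95, 38 lost their call with fat and muscle scores as covariates, Cthrc1, Spp1, Col1a1, Trem2 and Fkbp4 among them. With neuron and airway scores 34 lost their call with the same sign, and 4 more changed sign and lost it too. Leaving out the 4 libraries ended 17 calls, among them those of Ccn4 at 1.42 (edgeR adjusted p = 0.0732), Tnfrsf11b at 1.56 (edgeR adjusted p = 0.0506), Igf1 at 1.39 (edgeR adjusted p = 0.0584) and Wnt5a at 0.60 (edgeR adjusted p = 0.103). The total ran from 224 genes without KI replicate 5 to 977 without WT replicate 5. At the threshold itself, Ttk, a spindle checkpoint kinase, lay just inside (log2 change 2.35, edgeR adjusted p = 0.0495), and Acsbg1 and Kif21a lay just outside, both at 0.050.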

How the data were processed

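The authors deposited whole-number read counts of each gene with no normalization. Trim Galore, FastQC, HISAT2, DESeq2, GRCm38 and mm10 are named in the submitters' processing notes. What counted the reads, with what strandedness, was not given in the sources used here, which leaves overlapping genes on opposite strands undistinguished. Gene positions in the table do not match the GRCm38 annotation and are not printed. All 24 count columns were matched to samples by name, and 0 per-sample columns were left unmatched. Of 21959 genes 2577 had no read.

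From these counts edgeR 4.0.16 (R 4.3.3; TMM factors, filterByExpr by group, robust quasi-likelihood) fitted genotype plus BAPN over all 24 libraries. A model with 1 mean per group gave the within-genotype changes and their difference. SE is the log2 change divided by the root of F. Named genes are, per direction, the 12 largest changes and the 6 smallest p among called genes that pass each leave-out at 5 CPM or more in the higher group, up to 4 called members per list, the lysyl oxidases and Atad3a, with 7 more chosen after their values were seen, as were list members given by their log2 change alone, Anln, Melk and the genes at the threshold. Some genes that this rule names are not reported here. The gene lists and members were chosen with earlier results of these data known. Alternatives were 17 settings, among them DESeq2 1.42.0 and limma voom 3.58.1, and 24 leave-outs. The steps were tested on simulated data. Animals are taken as separate samples from the labels. No pair of libraries was identical, with a chi-square of at least 30.8 per degree of freedom within groups. Promoter windows are from RefSeq (GRCm38.p6).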

Additional observations from a re-analysis of the deposited data

Results flagged for a closer look

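Within each of the 4 groups, the highest or lowest library of each of the 106 named genes was set against the others on the log2 CPM scale by Dixon's test at its 95% level. Of 424 gene and group pairs 48 stood apart, and chance alone would mark about 1 in 20. Values are CPM. Of the 48, 25 were in WT replicate 5, the library that held airway, skeletal muscle and nerve RNA. It was far above the other WT libraries for Ccnb1 at 2.75, Top2a at 12.2, Cyp2a5 at 1173, Bpifa1 at 9679.8, Reg3g at 1015, Ltf at 1059, Rab3c at 30.8, Acta1 at 1976, Pvalb at 73.3, Ncmap at 19, Sox10 at 27.6, Nr4a3 at 308 and Tbx2 at 35.6, and far below them for Timp1 at 7.21, Lox at 84.5, Loxl1 at 82.2, Loxl3 at 19.9, Col1a1 at 357, Col5a2 at 128, Thbs2 at 19.6, Has3 at 3.32, Dkk3 at 135, Eln at 253, Acta2 at 4198 and Myh11 at 2521. In KI, replicate 5 was far below the others for Timp1 at 6.85, Wnt5b at 2.14 and Dkk3 at 181.

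Of the KI-BAPN libraries, replicate 5 stood apart with high Dbh at 1.76, Rab3c at 1.03, Pdp2 at 40.4, Has3 at 6.94, Syt1 at 1.89 and Sfrp5 at 9.55. Replicate 3 stood apart for Thbs2 at 266, Hykk at 9.55 and Myh11 at 2046, replicate 4 for Wnt5b at 3.8 and replicate 6 for Bpifa1 at 0. Of the WT-BAPN libraries, replicate 7 was high for Reg3g at 0.838, Scgb3a2 at 1.2, Scgb1a1 at 2.99 and Cct7 at 293. Replicate 5 stood apart for Capn6 at 31.1, replicate 1 for Rab3c at 0.103, Rit2 at 0.0517 and Orc6 at 17.7 and replicate 6 for Sqstm1 at 262. Values near 0 in this list rest on few reads.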

How the results depend on the processing

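The count of 499 genes (248 higher, 251 lower) was within 1.5 times under upper quartile and RLE factors, without robust estimation, with both other filters, without the genotype term, as a mean of the within-genotype changes and with fat and muscle or mesothelium covariates. The fat and muscle fit called 446 genes, of which 253 were among the 499, and 38 named genes lost their call. It was 1145 with DESeq2 (506 higher, 639 lower), 3706 with limma voom (1797 and 1909), 2264 when the 4 libraries with other tissue were left out (1179 and 1085), 1 at an adjusted p of 0.01 (1 and 0) and 1087 at 0.1 (496 and 591). Added after the data were seen, neuron and airway covariates, with 259 of the 499 shared, gave 1858 (1151 and 707), and leaving out WT replicate 5 and KI replicate 2 gave 1807 (963 and 844). Genes lower were 466 with no filter, 154 at 1 CPM or more in 11 libraries, 156 with fat and muscle covariates and 382 without the genotype term. The count with an unadjusted p under 0.05 in both genotypes, 269, was 423 with DESeq2, 586 with limma voom, 865 without the 4 libraries, 1 at an adjusted p of 0.01, 1177 with neuron and airway covariates and 757 without WT replicate 5 and KI replicate 2. For the difference between genotypes DESeq2 called 14 genes and limma voom 4. The cause was not tested.

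Leaving out 1 library at a time gave 224 to 977 genes, 102 to 595 higher and 117 to 495 lower, 130 to 459 for both genotypes, and 0 each time for the difference between genotypes. With neuron and airway covariates 4 named genes changed sign: Acta1 (0.057), Ncmap (0.14), Syt1 (0.39) and Vtn (0.71). Their calls were lost there.

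A replicate block in the edgeR fit left 64 calls (33 higher, 31 lower), 57 of them for both genotypes, and 67 of 95 named genes were not called. The numbers are not stated to pair animals: over 33 pairs of libraries with the same number the deviations from group means correlated at -0.521 to 0.571 (median 0.070), 16 pairs were over 0.1, and 4 of 24 libraries correlated best with their own number.

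Genes under 5 CPM, 65 of those higher and 51 of those lower, rest on few reads.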
